A study of Mus musculus with 6 samples.

Results

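The 10 genes described here encode the ferritin subunits (Fth1, Ftl1), the iron carrier transferrin and its receptor (Trf, Tfrc), an iron importer and an iron exporter (Slc11a2, Slc40a1), the ferroxidase ceruloplasmin (Cp), an iron regulatory protein (Ireb2) and the biliverdin reductases of heme breakdown (Blvra, Blvrb). They were taken by gene symbol, and all 10 were found, with 1 row each, among the 57180 genes of the table. The tissue was dorsal root ganglia, the clusters of sensory nerve cell bodies beside the spinal cord, from spinal levels T8 to L2 of wild-type (WT) mice, 24 h after kidney surgery. In 3 mice with renal ischemia-reperfusion (I/R) the vessels of the left kidney were clamped for 28 min under Zoletil anesthesia and released, and the right kidney was removed. In 3 sham mice, anesthetized likewise, the same surgery was done without the clamp. The labels do not say separately that the right kidney of the sham mice was removed, and give no age, sex or strain. There was 1 RNA library per mouse, so the tests measure the spread between mice.

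Cells take up iron as transferrin bound to the transferrin receptor. In the acid endosome the iron is released and crosses the membrane through the transporter encoded by Slc11a2, DMT1. Surplus iron is stored inside ferritin shells of heavy and light chains or leaves through ferroportin, the product of Slc40a1, helped by a ferroxidase such as ceruloplasmin. When iron is scarce, iron regulatory proteins bind hairpins called iron-responsive elements in messenger RNA. Binding before the coding sequence blocks translation, as in ferritin mRNA, and binding after it protects the mRNA from decay, as in Tfrc mRNA. RNA sequencing can therefore report on the second kind of control and not on the first. Sensory neurons need iron for respiration and are exposed to it through leaky ganglion vessels, and macrophages recycle it from the heme of red cells.

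The elements are printed because they are where iron regulatory proteins are known to act on ferritin, ferroportin and transferrin receptor mRNA. Transcripts were those of GENCODE release M21 on the GRCm38 assembly, and for all 10 members a transcript had exactly the length that the authors' table gives. The search, on the transcript strand, was for a C, then 5 bases, the loop CAGTGN with N any base, and 5 bases able to pair with the 5 before the loop, G-T pairs allowed. Capitals mark the 6 bases of the loop, and the element is shown with 6 bases on either side, 5′ to 3′, in DNA letters.
Fth1: ttcctgcttcaaCAGTGCttgaacggaac
Ftl1: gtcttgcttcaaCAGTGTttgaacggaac
Slc40a1: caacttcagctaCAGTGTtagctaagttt
Tfrc element 1: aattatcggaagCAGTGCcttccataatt
Tfrc element 2: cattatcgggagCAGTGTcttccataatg
Tfrc element 3: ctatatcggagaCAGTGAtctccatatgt
Tfrc element 4: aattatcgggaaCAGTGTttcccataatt
The ferritin and ferroportin elements lie in 5′ untranslated exon sequence, Fth1 at chr19:9982732-9982760 (plus strand), Ftl1 at chr7:45459779-45459807 (minus strand) and Slc40a1 at chr1:45925465-45925493 (minus strand). The Tfrc elements lie in the 3′ untranslated exon, from chr16:32631219-32631247 for element 1 to chr16:32631710-32631738 for element 4 (plus strand). The motif was in a 5′ untranslated region of 0.0914% and in a 3′ untranslated region of 0.539% of 21877 protein-coding genes, each read from its longest transcript, and Tfrc was the 1 gene with more than 1 match in a 3′ untranslated region. The transcripts of Trf, Cp, Slc11a2, Ireb2, Blvra and Blvrb held no match to this pattern. Because the search asked for 5 unbroken pairs, it would miss a hairpin with a bulge or mismatch there. The lack of a match, for Slc11a2 as for the others, therefore does not show that a transcript has no element.

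In I/R ganglia the fitted levels of the 10 iron and heme genes stood at 0.837 to 1.26 times those of sham ganglia. No member passed the test over all 16346 genes kept by edgeR's filter on low counts, in either direction, and all 10 members were kept. The test was edgeR's quasi-likelihood test at a Benjamini-Hochberg adjusted p under 0.05, which called 1.15% of all tested genes, 0.722% higher and 0.428% lower in I/R. DESeq2 and limma-voom called 0 of the 10 as well. Before adjustment, 2 of the 10 members had a p under 0.05, against 10.5% of all tested genes, and 5 lay above and 5 below 0. The median log2 fold change of the members, I/R over sham, was -0.02, and that of all tested genes was 0.00. The fold changes ran from -0.26 for Trf to 0.34 for Slc11a2. Groups did not overlap for 2 members, Slc11a2 and Trf, against 17.1% of all tested genes.

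**Figure D1:**
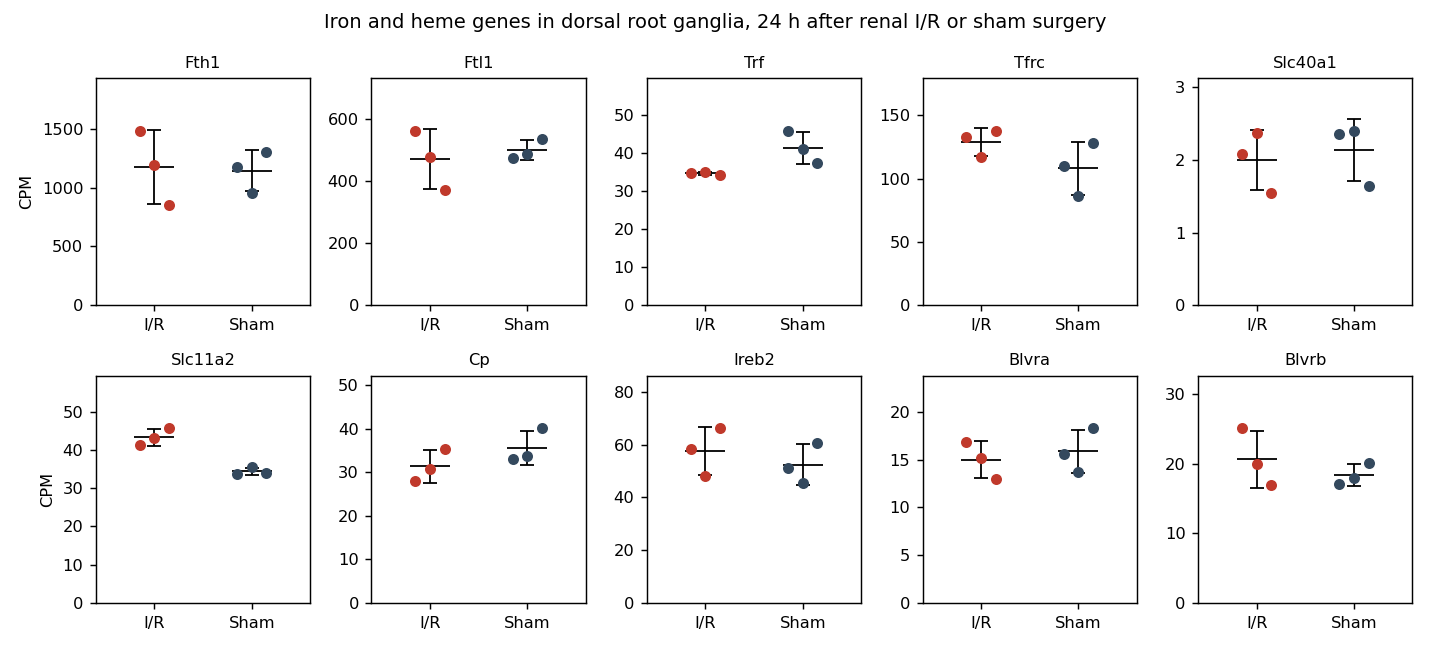
Level of each of the 10 genes in CPM (counts scaled to library size; y axes from 0, a different scale in each panel) in the 3 I/R libraries (red, left) and the 3 sham libraries (blue, right), points placed in order of replicate number, with mean and SD (black). Groups are apart for Slc11a2, where I/R is higher, and for Trf, where I/R is lower, and overlap for the other 8 genes.

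The libraries held between 19092650 and 22010227 estimated reads in all. Markers of sensory neurons (9 genes, among them Tubb3 and Prph) summed to 7983 to 9068 CPM in I/R ganglia and 7903 to 8467 CPM in sham ganglia, and all 9 passed the filter with 0 called. Skeletal muscle markers stood apart in sham 1 and sham 3, at 538 and 318 CPM over 10 genes, with 56.9 CPM in sham 2 and 44.7 to 69.7 CPM in I/R. Pvalb, the marker with the highest mean on that list, is also made by proprioceptive neurons. Macrophage markers summed to 81.8 to 83.5 CPM in I/R and 64.0 to 64.9 CPM in sham (11 genes, 1 called higher). Markers of meninges and fibroblasts summed to 351 to 415 CPM in I/R and 691 to 838 CPM in sham (9 genes, 8 called lower). Over all tested genes, 0.722% were called higher and 0.428% lower. The lists were chosen with earlier results of these data known, so counts of called markers are not a test of a cell type. Sums of satellite glia (2169 to 3101 CPM in I/R, 2793 to 3118 CPM in sham), endothelial (96.0 to 99.3 CPM in I/R, 89.6 to 103 CPM in sham) and neutrophil markers (10.4 to 14.0 CPM in I/R, 11.6 to 18.0 CPM in sham) overlapped between the groups. Of these, 1 satellite glia marker was called lower, Fabp7, at 66.3 to 85.2 CPM in I/R and 126 to 195 CPM in sham (adjusted p = 0.019). The 1 skeletal muscle marker called lower was Myl1 (adjusted p = 0.047), at 0 to 0.339 CPM in I/R and 15.1, 0.70 and 10.9 CPM in sham 1 to 3. In whole ganglia, fewer cells of a type and less RNA per cell cannot be told apart.

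Measured per length, ferritin was by far the most abundant of the group. On the TPM scale (counts divided by gene length and scaled to the same total in each library), the level of Fth1 was 3225 ± 697 in I/R and 3128 ± 396 in sham (SD, n = 3 per group), and that of Ftl1 was 1243 ± 189 in I/R and 1314 ± 47.4 in sham. Tfrc and Blvrb followed, at 67.8 ± 7.48 and 55.4 ± 7.86 TPM in I/R and 56.1 ± 9.27 and 49.2 ± 2.82 TPM in sham. Trf, Slc11a2, Blvra and Ireb2 had I/R means between 25.7 and 38.1 TPM. Cp had 17.7 ± 3.05 TPM in I/R and 19.8 ± 1.52 TPM in sham, and Slc40a1 was lowest, at 1.52 ± 0.29 TPM in I/R and 1.62 ± 0.367 TPM in sham. Over the 6 libraries the ranges of neighbours in this order overlapped from Tfrc down to Cp. Fth1 stood apart from Ftl1, Ftl1 from Tfrc and Cp from Slc40a1.

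Fth1 encodes the heavy chain, the ferritin subunit with ferroxidase activity. It stood at 1484, 1192 and 854 CPM in I/R 1 to 3, against 1177, 955 and 1302 CPM in sham 1 to 3. The I/R libraries held both the highest and the lowest value, and the groups overlapped. On the log2 scale the difference was 0.04 ± 0.19 (SE), with an adjusted p of 0.96 by edgeR and a 95% interval for the fold of 0.772 to 1.37.

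Ftl1 encodes the light chain, which aids the build-up of the iron core. It stood at 563, 480 and 372 CPM in I/R 1 to 3, against 475, 489 and 537 CPM in sham 1 to 3. As with Fth1, I/R 1 was the highest library and I/R 3 the lowest. The log2 fold change was -0.09 ± 0.14 (adjusted p = 0.87), with an interval for the fold of 0.759 to 1.17. Ferritin genes have processed pseudogenes, and part of the counts of Ftl1 were not whole numbers. The pseudogene Ftl1-ps1 held 20 to 40 rounded counts per library, against 8143 to 11398 for Ftl1. The ratio of Fth1 to Ftl1 per length was 2.75, 2.59 and 2.39 in I/R 1 to 3 and 2.58, 2.04 and 2.53 in sham 1 to 3, with overlapping groups.

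The spread of the ferritin genes within the I/R group ran alongside a difference in gene length between libraries. Among 598 genes shorter than 1 kb and averaging 10 CPM or more, the median deviation of log2 CPM from the mean of the 6 libraries was 0.29, -0.12 and -0.39 in I/R 1 to 3 and -0.02, -0.10 and 0.35 in sham 1 to 3. Among 3516 genes longer than 4 kb it was -0.08, 0.03 and 0.12 in I/R and 0.00, 0.03 and -0.07 in sham. Fth1, of 929 bases, deviated by 0.38, 0.06 and -0.42 in I/R and by 0.04, -0.26 and 0.19 in sham. Short genes as a class were thus high in I/R 1 and sham 3 and low in I/R 3, and the groups overlapped. In a fit with each library's trend on gene length removed, an alternative chosen after seeing the data, the SE of the Fth1 log2 fold change was 0.10 and its value 0.12 (adjusted p = 0.66). The SE for Ftl1 was 0.08 there, with a value of -0.01 (adjusted p = 0.98).

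**Figure D2:**
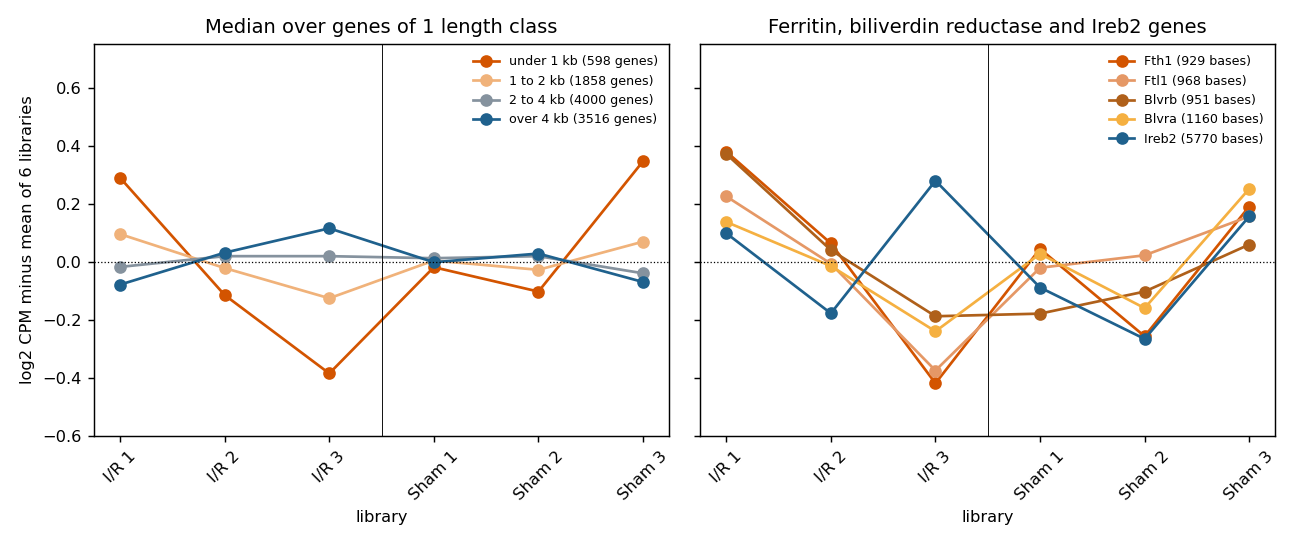
Deviation of log2 CPM from the mean of the 6 libraries (y axis) by library (x axis, I/R left of the vertical line, sham right), with lines joining the values of 1 class or gene to guide the eye. Left, the median over genes of each length class, from 0.29 in I/R 1 to -0.39 in I/R 3 for genes under 1 kb; right, the ferritin and biliverdin reductase genes, of 929 to 1160 bases, and Ireb2, of 5770 bases, which was highest in I/R 3.

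Trf encodes transferrin, the iron carrier of plasma, which the liver secretes and which myelinating glia also make in nervous tissue. It stood at 34.7, 35.0 and 34.2 CPM in I/R 1 to 3, against 45.8, 40.9 and 37.4 CPM in sham 1 to 3. All 3 I/R values lay below all sham values, and they lay close together. The log2 fold change was -0.26 ± 0.10, a fold of 0.837 with an interval of 0.714 to 0.981, and did not pass the test over all genes (adjusted p = 0.41, unadjusted p = 0.031). Markers of Schwann cells (6 genes, 0 called) summed to 3105, 3577 and 3227 CPM in I/R and 3768, 3682 and 3461 CPM in sham, with overlap between the groups. Of these 6, Mbp and Pmp2 were lower in every I/R library than in any sham library, Ncmap was higher in every I/R library, and the other 3 overlapped. Mbp, a myelin gene with the highest mean of the 6, stood at 1154 to 1405 CPM in I/R and 1439 to 1700 CPM in sham. Markers of spinal cord oligodendrocytes (5 genes) summed to 1.83, 3.73 and 3.01 CPM in I/R and 22.2, 3.30 and 14.1 CPM in sham, and hepatocyte markers (5 genes, none above the filter) to 4.10, 1.31 and 0.411 CPM in I/R and 0.393 to 0.463 CPM in sham. Their part in the Trf values was not tested.

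Tfrc encodes the transferrin receptor, whose mRNA carries the 3′ elements printed above. It stood at 133, 117 and 138 CPM in I/R 1 to 3, against 110, 86.5 and 128 CPM in sham 1 to 3. The I/R mean was higher, and sham 3 lay inside the I/R range. Its log2 fold change was 0.25 ± 0.14 (adjusted p = 0.59), with an interval for the fold of 0.959 to 1.48.

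Ireb2 encodes IRP2, a protein that binds those elements. It stood at 58.3, 48.1 and 66.1 CPM in I/R 1 to 3, against 51.2, 45.3 and 60.7 CPM in sham 1 to 3, with overlapping groups and I/R 3 highest. This gave a log2 fold change of 0.14 ± 0.14 (adjusted p = 0.80). Aco1, the cytosolic aconitase that becomes the other iron regulatory protein when its iron-sulfur cluster is lost, stood at 36.1 to 38.7 CPM in I/R and 37.7 to 40.2 CPM in sham (log2 fold change -0.04 ± 0.09). Fbxl5, the ubiquitin ligase subunit that removes iron regulatory proteins when iron is plentiful, stood at 44.4 to 48.6 CPM in I/R and 43.1 to 48.0 CPM in sham (0.04 ± 0.09). Aco1 and Fbxl5 were named after their values were seen.

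Slc11a2, which encodes DMT1, had the smallest p of the group. It stood at 41.2, 43.1 and 45.6 CPM in I/R 1 to 3, against 33.7, 35.5 and 33.9 CPM in sham 1 to 3. Every I/R library lay above every sham library, by a margin larger than the spread within either group. The fold was 1.26, with an interval of 1.09 to 1.45 that covers this 1 gene and not the search over all genes, and a log2 fold change of 0.34 ± 0.09. It did not pass the test over all genes (adjusted p = 0.17, unadjusted p = 0.0046). Leaving out any 1 library gave log2 fold changes of 0.30 to 0.37 with adjusted p of 0.19 to 0.52, and with the gene length trend removed the adjusted p was 0.077.

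Among 9971 other genes averaging 10 CPM or more, the profiles nearest to that of Slc11a2 over the 6 libraries were those of Ptprd, Sytl2 and Prss23. The root mean square difference of their mean-centered log2 CPM from that of Slc11a2 was 0.0191, 0.0315 and 0.0337. These genes were picked for likeness over the same 6 libraries, so fold changes near that of Slc11a2 follow from the choice. Ptprd encodes a receptor tyrosine phosphatase of synapses, Sytl2 a Rab27-binding protein of vesicle traffic and Prss23 a secreted serine protease. Ptprd stood at 19.6 to 21.1 CPM in I/R and 15.5 to 16.4 CPM in sham (log2 fold change 0.35 ± 0.10, adjusted p = 0.21). Neither Sytl2 nor Prss23 passed that test (adjusted p = 0.18 and 0.26).

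Slc40a1 encodes ferroportin, the known cellular iron exporter, and was the least abundant of the group. It stood at 2.08, 2.37 and 1.55 CPM in I/R 1 to 3, against 2.36, 2.40 and 1.65 CPM in sham 1 to 3, from 32 to 49 counts per library. The groups overlapped, and I/R 3 and sham 3 were the lowest of their groups. Its log2 fold change was -0.10 ± 0.25 (adjusted p = 0.92), and at this depth the interval for the fold ran from 0.635 to 1.38. Cp, whose product oxidizes iron as it leaves the cell, stood at 27.9, 30.9 and 35.3 CPM in I/R 1 to 3, against 33.0, 33.8 and 40.1 CPM in sham 1 to 3. I/R 1 and I/R 2 lay below all sham values and I/R 3 did not. The log2 fold change of Cp was -0.18 ± 0.12 (adjusted p = 0.66).

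Blvra and Blvrb encode the biliverdin reductases A and B, and the A form reduces biliverdin, the product of heme oxygenase, to bilirubin. Blvra stood at 16.9, 15.2 and 13.0 CPM in I/R 1 to 3, against 15.6, 13.7 and 18.3 CPM in sham 1 to 3 (log2 fold change -0.08 ± 0.15, adjusted p = 0.89). Blvrb, also known as a flavin reductase of red cells, stood at 25.1, 19.9 and 17.0 CPM in I/R 1 to 3, against 17.1, 18.0 and 20.2 CPM in sham 1 to 3 (0.16 ± 0.15, adjusted p = 0.76). Blvrb, of 951 bases, belongs to the genes shorter than 1 kb, and Blvra, of 1160 bases, does not. Both were highest in I/R 1 among the I/R libraries and highest in sham 3 among the sham libraries. The groups overlapped for both. With the length trend removed, Blvrb had a log2 fold change of 0.25 ± 0.10 with an adjusted p of 0.30.

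**Figure D3:**
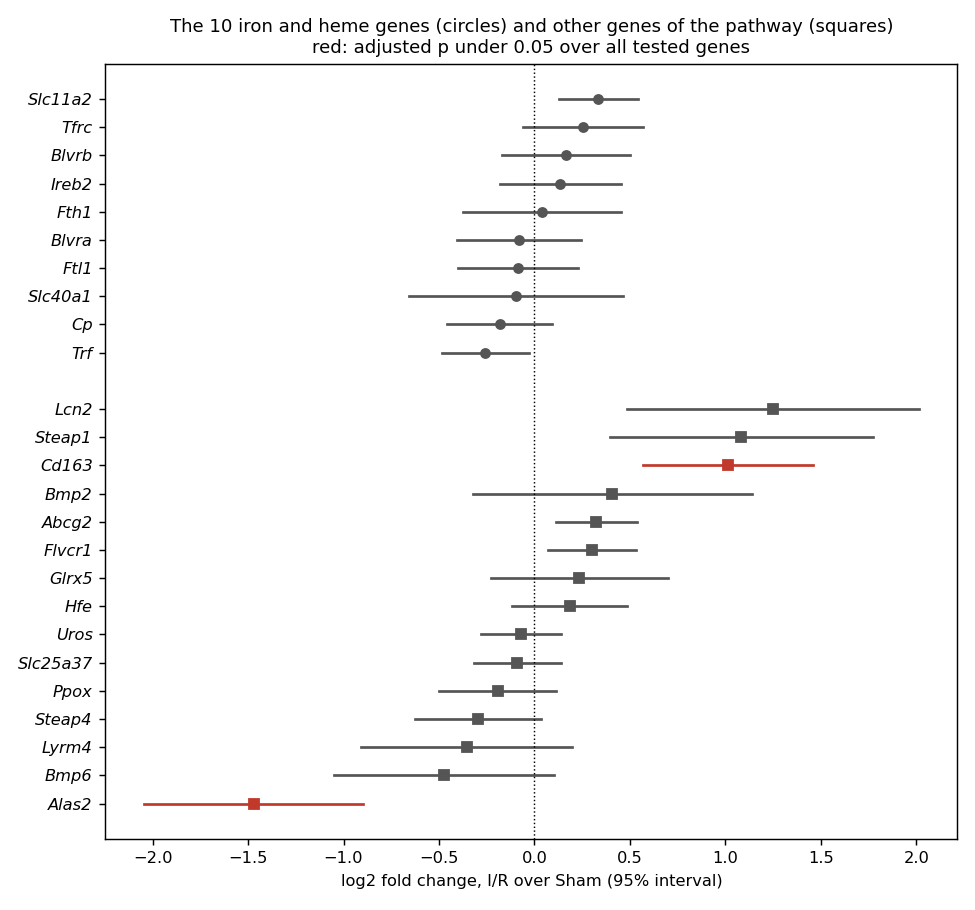
Log2 fold change, I/R over sham, with its 95% interval (x axis) for the 10 genes (circles) and for the other iron and heme genes named by rule (squares). The 10 genes lie between -0.26 and 0.34 and none is called; Cd163 and Alas2, in red, have an adjusted p under 0.05.

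In the wider iron and heme pathway, Cd163 was called higher and Alas2 lower. Of 62 other genes, 54 passed the filter on low counts, and these were the 2 called of the 54, where edgeR called 1.15% of all tested genes. Before adjustment, 6 of the 54 had a p under 0.05, against 10.5% of all tested genes. The median log2 fold change of the 54 was 0.01, with 30 above and 24 below 0. Groups did not overlap for 9 of the 54, against 17.1% of all tested genes.

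The called genes of the pathway came from different lists, Cd163 from heme breakdown, uptake and export and Alas2 from heme synthesis. Cd163, the macrophage receptor that takes up hemoglobin bound to haptoglobin, rose to 7.51, 5.04 and 5.89 CPM in I/R 1 to 3, against 3.29, 2.55 and 3.29 CPM in sham 1 to 3 (log2 fold change 1.01 ± 0.20, adjusted p = 0.046). The call was lost with upper-quartile factors (adjusted p = 0.051), with a filter of 1 CPM or more in 3 libraries (0.058) and by limma-voom (0.064). It was also lost with a block on replicate number (0.105) and in each fit that left out 1 of the 6 libraries (0.0755 to 0.16). The other 10 macrophage markers, none of them called, summed to 74.3, 77.2 and 77.7 CPM in I/R and 61.1, 62.4 and 60.7 CPM in sham. Csf1r, the marker with the highest mean, overlapped at 15.7 to 18.4 CPM in I/R and 14.2 to 17.0 CPM in sham. Adgre1, C1qa, C1qb, Aif1 and Lyve1 overlapped as well, and the mean of Aif1 was lower in I/R. Mertk did not overlap, at 16.2 to 21.4 CPM in I/R and 11.6 to 13.8 CPM in sham. Cd68, Cx3cr1 and Mrc1 also lay higher in every I/R library.

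Alas2, the heme synthesis enzyme of red cell precursors, fell to 1.38, 1.02 and 0.821 CPM in I/R 1 to 3, against 2.60, 3.50 and 2.83 CPM in sham 1 to 3 (log2 fold change -1.47 ± 0.26, adjusted p = 0.024). It kept its call without I/R 1 (adjusted p = 0.024) and lost it without any other single library (0.0696 to 0.13). With a block on replicate number the call was lost too (0.154). Of 8 red cell markers, 6 were tested and 4 called lower, against 0.428% of all tested genes. The 8 red cell markers summed to 89.3, 64.4 and 53.4 CPM in I/R and 182, 196 and 274 CPM in sham. Their part in the Alas2 values, and that of the macrophage markers in the Cd163 values, was not tested.

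**Figure D4:**
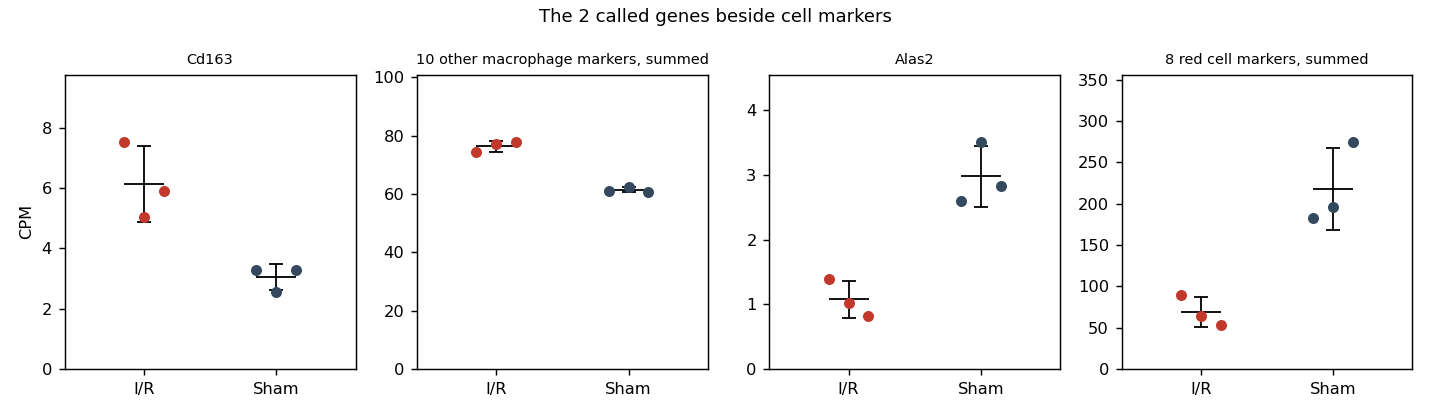
CPM (y axes from 0) of Cd163 beside the sum of 10 other macrophage markers, and of Alas2 beside the sum of 8 red cell markers, in the 3 I/R (red, left) and 3 sham (blue, right) libraries with mean and SD. Cd163 and the macrophage sum lie higher in I/R, and Alas2 and the red cell sum lie lower, with no overlap in any panel. Single markers within a sum can overlap, as Csf1r and Ahsp do.

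Like the biliverdin reductase genes, the heme oxygenase genes did not pass the test. Hmox1, the inducible heme oxygenase that opens the heme ring, stood at 28.8, 30.1 and 27.3 CPM in I/R 1 to 3, against 33.2, 34.9 and 28.9 CPM in sham 1 to 3 (log2 fold change -0.17 ± 0.11, adjusted p = 0.64). Hmox2, the constitutive form, stood at 82.6 to 93.8 CPM in I/R and 84.4 to 100.4 CPM in sham (-0.08 ± 0.10). Hmox1 and Hmox2 were named after their values were seen. Of the 10 tested genes for heme breakdown, uptake and export, 1 was called, Cd163, against 1.15% of all tested genes. The heme exporter genes Flvcr1 and Abcg2 lay higher in every I/R library, at 31.6 to 33.7 and 75.8 to 82.7 CPM in I/R and 24.9 to 29.1 and 58.2 to 67.5 CPM in sham, but did not pass the test (adjusted p = 0.30 and 0.21).

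Of 9 heme synthesis genes, Alas2 was called, against 1.15% of all tested genes. The other 8 had log2 fold changes between -0.19, for Ppox, and 0.07, for Fech. Alas1, the form of the first enzyme used outside red cells, stood at 52.8 to 56.8 CPM in I/R and 47.7 to 56.0 CPM in sham (0.05 ± 0.10), and was named after its value was seen. Uros had the third smallest p of the list (-0.07 ± 0.09).

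Of 15 tested genes for other iron uptake, reduction, export and chaperones, edgeR called 0, against 1.15% of all tested genes, and 2 had a p under 0.05 before adjustment, against 10.5%. Lcn2, which binds bacterial iron carriers, stood at 1.83, 2.18 and 1.64 CPM in I/R 1 to 3, against 0.638, 0.500 and 1.23 CPM in sham 1 to 3 (log2 fold change 1.25 ± 0.34, adjusted p = 0.16). Steap1, a metalloreductase family member, stood at 2.22, 1.40 and 1.51 CPM in I/R, against 0.589, 0.950 and 0.874 CPM in sham (1.08 ± 0.31, adjusted p = 0.19). Both rested on few reads, 29 to 45 counts per library in I/R and 10 to 24 in sham. Steap4, another metalloreductase, had a value of -0.30 ± 0.15.

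Of 6 tested genes for iron sensing and hepcidin control and 14 for mitochondrial iron and iron-sulfur clusters, edgeR called 0. Before adjustment 0 of them had a p under 0.05. Over all tested genes these shares were 1.15% and 10.5%. Bmp6, an inducer of hepcidin in the liver, had a log2 fold change of -0.47 ± 0.26, Bmp2 one of 0.41 ± 0.33, and Hfe, a partner of the transferrin receptor, one of 0.18 ± 0.14. Among the mitochondrial genes, Lyrm4, which helps to build iron-sulfur clusters, had a value of -0.36 ± 0.25, Glrx5, which passes clusters on, one of 0.23 ± 0.21 and Slc25a37, the iron carrier mitoferrin, one of -0.09 ± 0.10. DESeq2 and limma-voom called none of these 20 genes.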

How the data were processed

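RNA of 6 ganglion samples was sequenced from stranded Illumina mRNA libraries made after TRIzol extraction, per the labels' protocols. Tools named in the submitters' processing notes are fastp, HISAT2 and StringTie, without role or order, on the assembly GRCm39. How reads were counted, with which strand setting and annotation, is not given in the sources used here. A single table was deposited by the authors, of expected counts per gene and library with no scaling to depth. Of these estimated counts, 10.7% to 11.5% per library were not whole, and they were rounded before testing. The authors' group means were not used, and the deposited gene length, in bases, entered levels per length and the length alternative.

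Counts were tested with edgeR 4.0.16 (R 4.3.3): TMM normalization, filterByExpr, quasi-likelihood test, Benjamini-Hochberg adjustment over all tested genes, with calls at an adjusted p under 0.05. Each p printed is from this test where no other tool is named. The procedure was tested on simulated data with the same biological coefficient of variation for every gene, 13.2%, and no trend on gene length. There it recovered 31.3% of genes changed 1.5-fold, 92.5% at 2-fold and 98.5% at 4-fold. Of its 151 calls there, 3 were false. In the deposited data the spread differed between genes and short genes shifted between libraries, so these rates need not hold there. Changes as small as those fitted for the members were not simulated. Fold changes are I/R over sham. Each SE is the log2 fold change over the root of F, and intervals are 95%, for a single gene. CPM used TMM-scaled totals. No pair of libraries within a group was the same within sampling noise (chi-square per degree of freedom 4.26 to 30.5). Limits from counts cover counting error only.

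The alternatives were RLE and upper-quartile scaling, DESeq2 1.42.0, limma-voom (limma 3.58.1), no filter, a filter of 1 CPM or more in 3 libraries, a block on replicate number, leaving out each library, ferritin genes summed with their pseudogenes and, added after seeing the data, removal of each library's lowess trend on gene length. The members and lists were chosen with earlier results of these data known. Genes outside the 10 were named if called or among the 3 of smallest p in their list, and cell lists were given by their sums (1 Schwann cell marker is not reported here); other genes were named after their values were seen. Element coordinates are of GRCm38, from GENCODE M21, and were not combined with the authors' data.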

Additional observations from a re-analysis of the deposited data

How the results depend on the processing

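No member was called in either direction under the alternatives, among which the sum with pseudogenes was read for Fth1 and Ftl1 only, and 2 members had groups that did not overlap under TMM, RLE and upper-quartile scaling. Of 142 recomputed log2 fold changes of members, 136 kept their sign and none crossed the threshold. The 6 that changed sign came from leaving out 1 library. Over the fits without 1 library the values ran from -0.16 to 0.23 for Fth1, from -0.23 to 0.06 for Ftl1, from -0.26 to 0.059 for Slc40a1, from -0.18 to 0.03 for Blvra and, in the pathway, from -0.061 to 0.44 for Glrx5. Pathway genes called higher numbered 1 in the reported fit, 0 with upper-quartile factors, limma-voom, a CPM of at least 1 in 3 libraries or the replicate block, 2 with no filter on low counts, and 0 in each fit without 1 library. Pathway genes called lower numbered 1, with 2 under no filter, 0 with the replicate block, and 0 to 1 in the fits without 1 library. That 1 was Alas2 without I/R 1 and Hjv without sham 2 (adjusted p = 0.011). Without the filter the added calls were Lcn2 (adjusted p = 0.031) and Hjv (adjusted p = 0.00098). Over all tested genes, same-numbered libraries did not deviate together (correlations of -0.11, 0.14 and -0.12). This does not settle whether the labels' numbers pair mice. With the replicate block the SE was lower for some members, as for Tfrc (0.096 against 0.141), and higher for others, as for Fth1 (0.202 against 0.185). The block lowered the calls over all genes to 63, against 188, and left 0 members called. A p that misses the threshold with 3 mice per group does not show that a gene was the same in both groups.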

Other observations

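Of the 62 pathway genes, 8 did not pass the filter on low counts. Hjv, which encodes hemojuvelin, a protein made in skeletal muscle and liver, had 0, 1 and 0 counts in I/R 1 to 3, against 26, 1 and 15 counts in sham 1 to 3. Sham 1 and sham 3, with 26 and 15 Hjv counts, were also the libraries with high skeletal muscle markers, and the part of muscle in these counts was not tested. Erfe, which encodes erythroferrone, a suppressor of hepcidin, had 4, 4 and 6 counts in I/R 1 to 3, against 1, 0 and 1 counts in sham 1 to 3. Hamp, the hepcidin gene, had 1 count in I/R 1 and 1 in sham 1 and 0 in the other libraries, and Ftmt, the mitochondrial ferritin gene, had 0 counts in all 6 libraries, where a count of 0 allows up to 0.137 to 0.154 CPM per library. Hpx, the gene of the plasma heme carrier hemopexin, had 2, 1 and 4 counts in I/R 1 to 3, against 0, 0 and 1 counts in sham 1 to 3.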
